A study of Mus musculus with 3 samples.

Results

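The Tmem132 family comprises 5 genes of the mouse genome, Tmem132a, Tmem132b, Tmem132c, Tmem132d and Tmem132e, which were taken by name from the 31055 genes of the count matrices. The genes were chosen by their levels across clusters, with these known, and the clusters had been formed on the same counts. All levels below are therefore descriptions with no test, and genes are not compared with each other by level.

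TMEM132 proteins cross the membrane once and carry a large extracellular part with immunoglobulin-like domains, and they are regarded as candidate adhesion molecules that connect the cell surface with the actin cytoskeleton. TMEM132A has been studied for its binding to the chaperone HSPA5 and for its part in Wnt secretion through WLS. TMEM132B is known as a partner of GABA-A receptors, TMEM132D is best known from genetic studies of anxiety, and TMEM132E is known as a deafness gene. The olfactory bulb (OB) sends its output through mitral cells and tufted cells, while granule and periglomerular cells are its local inhibitory neurons.

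Single-nucleus RNA-seq was performed on the OB of 3 adult male C57Bl/6 mice, which form 1 group without a control group. Each mouse had received retroAAV-CAG-H2B-GFP, a retrogradely transported virus that labels nuclei, in the piriform cortex (PCx) and the anterior olfactory nucleus (AON). GFP-positive nuclei were then enriched by fluorescence-activated nuclei sorting. The sort also held inhibitory and glial nuclei, and the CAG promoter that drives H2B-GFP is active in most cell types.

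The mice gave 5845, 21105 and 4753 nuclei with 58526996, 213891496 and 62929479 unique molecular identifiers (UMIs). Between 8 and 39 barcodes occurred in 2 libraries at a time. A type is a subcluster of the projection neuron clusters for the 7504 nuclei that have one, and a cluster of the first clustering for all others. Of 27 types, 25 had at least 10 nuclei in each mouse. Subclusters were named after mitral (M1, M2, M3), tufted (T1) and external tufted (ET1, ET2, ET4) types whose markers they carried, and the 10 inhibitory clusters keep their numbers. The ET4-like subcluster, with 883 nuclei, carried 6 of 6 ET4 markers, which include no member of the family, and also 5 of 7 ET1 markers. Levels are UMIs per 1000000 UMIs (CPM) summed per mouse and type.

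Tmem132b, Tmem132c and Tmem132d lie on chromosome 5. In GRCm38, Tmem132b (ENSMUSG00000070498) spans chr5:125531774-125792583 on the plus strand and Tmem132c (ENSMUSG00000034324) chr5:127241808-127565793 on the plus strand. Tmem132d (ENSMUSG00000034310) spans chr5:127781630-128433077 on the minus strand, so that the 3′ ends of Tmem132c and Tmem132d face each other over 216 kb. Tmem132e (ENSMUSG00000020701) lies at chr11:82388900-82446332 on the plus strand and Tmem132a (ENSMUSG00000024736) at chr19:10857822-10869940 on the minus strand. All 5 are protein-coding. Annotated exons make up 0.995% of the Tmem132d body of 651 kb and 37.5% of the Tmem132a body of 12.1 kb. How far reads from introns entered the counts is not given in the sources used here.

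RefSeq promoter windows were at hand for Tmem132b, Tmem132c and Tmem132e. The sequence before the start of Tmem132c, which was highest in ET4-like nuclei, and that before Tmem132e, which was highest in an inhibitory cluster, are shown because the members differ most in these patterns. Capitals mark the GC box, GGGCGG on either strand, and both stretches end before the first base annotated as transcribed in RefSeq or GENCODE (GRCm38.p6, plus strand, chr5:127241576-127241807 and chr11:82388650-82388851).
Tmem132c: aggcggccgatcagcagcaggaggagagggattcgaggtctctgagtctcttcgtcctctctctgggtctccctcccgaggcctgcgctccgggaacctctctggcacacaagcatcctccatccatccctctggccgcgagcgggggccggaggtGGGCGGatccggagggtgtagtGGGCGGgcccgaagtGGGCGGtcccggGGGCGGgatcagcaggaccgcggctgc
Tmem132e: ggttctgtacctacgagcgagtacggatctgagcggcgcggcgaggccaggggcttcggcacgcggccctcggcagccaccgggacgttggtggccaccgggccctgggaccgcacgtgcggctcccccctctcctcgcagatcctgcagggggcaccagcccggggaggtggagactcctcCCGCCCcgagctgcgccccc

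Over the 250 bases of the RefSeq promoter window, Tmem132c held 4 GC boxes, and Tmem132b and Tmem132e held 1 each. The Tmem132b window, chr5:125532168-125532417, lies inside the gene span given above, so it is not wholly upstream sequence. The windows of Tmem132c (chr5:127241576-127241825) and Tmem132e (chr11:82388650-82388899) also run past the printed stretches into bases annotated as transcribed. Their GC boxes all lie within the printed stretches. Of 32851 promoter windows of the same length, 32.7% held at least 1. On either strand, the TATA box TATAAA was in none of the 3 windows and in 12.4% of all. The CCAAT box, searched as CCAAT, was also in none of the 3 and in 33.9% of all. The cyclic AMP response element TGACGTCA was in none of the 3 and in 1.55% of all. The G and C content was 64.8% for Tmem132b, 68.0% for Tmem132c and 75.6% for Tmem132e, against a median of 52.4%.

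Tmem132d, with 116485 UMIs over the 3 mice, was concentrated in ET4-like nuclei. Its level there was 8550, 7212 and 7193 CPM in mice 1, 2 and 3 (7652 ± 778, SD, n = 3 mice). The next type, cluster 17 among the inhibitory clusters, held 1315, 1382 and 1156 CPM, so that every ET4-like library lay above every library of the other 24 types. ET4-like nuclei were 3.85%, 2.62% and 2.23% of nuclei and held 79.0%, 56.9% and 67.3% of all Tmem132d UMIs. Ranked by fold over the other types, Tmem132d was the first gene of this subcluster and Tmem132c the 7th.

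ET1-like nuclei came after cluster 17. Their Tmem132d level was 953, 1227 and 531 CPM, which overlapped with cluster 17 between mice, and the level of mouse 3 was the lowest. Beyond these, subcluster 2 (503 ± 266 CPM), OPC-like nuclei (oligodendrocyte precursors, 393 ± 83.7 CPM) and subcluster 8 (345 ± 134 CPM) overlapped with each other. In the remaining named projection types, levels lay between 7.502 CPM (M2-like, mouse 3) and 130 CPM (M3-like, mouse 2). The lowest means were those of clusters 0 and 15, where no library exceeded 10.3 CPM.

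**Figure D1:**
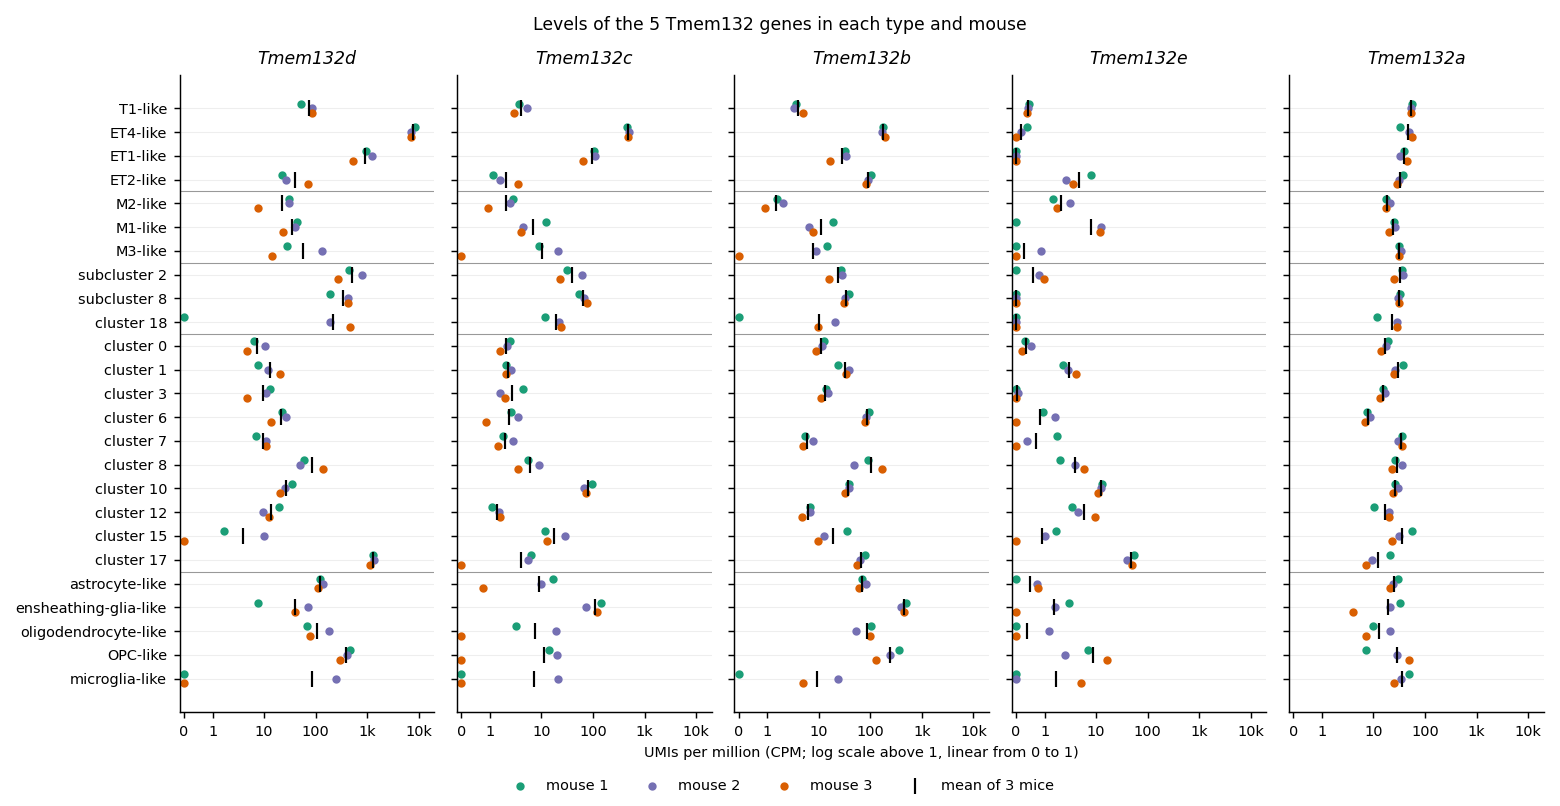
Level of each Tmem132 gene (CPM, on an axis that is logarithmic above 1 and linear from 0 to 1) in the 25 types with at least 10 nuclei in each mouse. Points are mice, black ticks are means of 3 mice, and grey lines part tufted-like, mitral-like, unnamed, inhibitory and glial types from top to bottom. Tmem132d reaches 7193 to 8550 CPM in ET4-like nuclei, Tmem132b peaks in ensheathing-glia-like nuclei, Tmem132e peaks in cluster 17, and Tmem132a stays within 3.99 and 55.9 CPM in all libraries shown.

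In single nuclei, all ET4-like nuclei of the 3 mice had a Tmem132d UMI (225, 552 and 106 nuclei). The share was still 100% in each mouse after each nucleus had been thinned to 3000 UMIs, which left out 0, 2 and 1 nuclei. In cluster 0, where the gene was near its lowest, the thinned shares were 1.74%, 2.62% and 1.61%, or 4.15%, 6.58% and 4.14% without thinning. These shares serve as a comparison, at median depths of 6920 to 9001 UMIs per nucleus in cluster 0 and 10003 to 13063 in ET4-like nuclei. The part of free RNA in them was not tested. The median ET4-like nucleus had 82.7, 68.9 and 70.1 Tmem132d UMIs per 10000, and the 5th percentiles were 32.3, 33.9 and 29.5. No ET4-like nucleus fell below 10 per 10000.

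ET1-like nuclei were spread over a wider range. Their medians were 3.21, 6.03 and 1.98 UMIs per 10000, their 95th percentiles 45.1, 42.2 and 20.99, and 29.3%, 39.8% and 18.4% of them reached 10 per 10000. In 1 random draw of 3000 UMIs per nucleus, 49.7%, 68.1% and 38.9% of ET1-like nuclei had a Tmem132d UMI. The exact expectation over all such draws was 53.4%, 69.5% and 46.7%, with SDs between draws of 2.29, 1.36 and 2.80 percentage points, so that the draw of mouse 3 was a low one. Drawn and expected shares both lay above the drawn shares in cluster 0. Cluster 17 was more even, with medians of 13.4, 12.98 and 11.9 per 10000 and a thinned share of 86.8%, 95.5% and 85.0% of its 190 nuclei in all. Cluster 17 carried 6 of 6 inhibitory markers, and its summed level of the 6 ET4 markers was 42.9 to 75.4 CPM against 1427 to 2012 CPM in ET4-like nuclei.

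**Figure D2:**
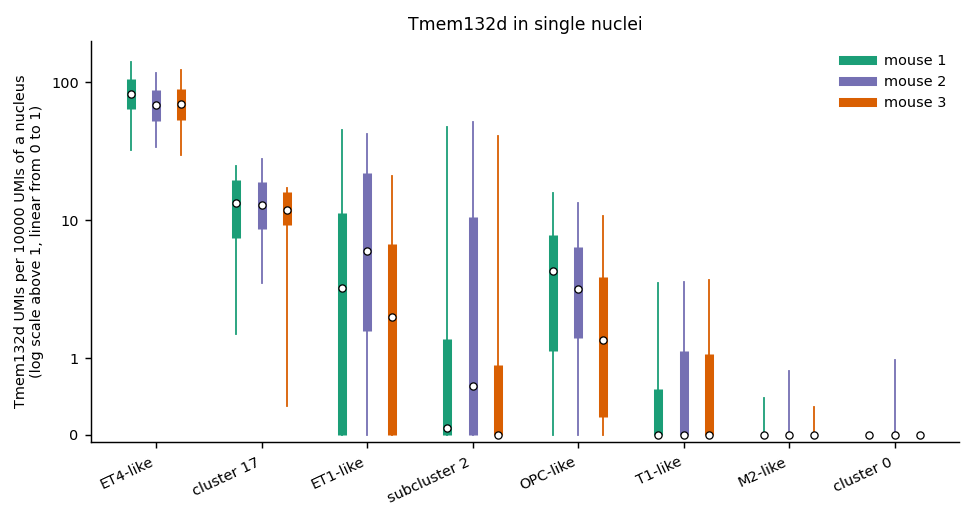
Tmem132d UMIs per 10000 UMIs of a nucleus in 8 types, on an axis that is logarithmic above 1 and linear from 0 to 1. White points are medians, thick bars run from the 25th to the 75th percentile and thin lines from the 5th to the 95th, per mouse. ET4-like medians lie at 68.9 to 82.7, cluster 17 is narrow around 11.9 to 13.4, and ET1-like nuclei extend from 0 to 95th percentiles of 20.99 to 45.1.

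Within ET1-like nuclei, Tmem132d moved with the ET4 markers. Across the 147, 442 and 114 nuclei of mice 1, 2 and 3, Spearman's rho of Tmem132d per UMI with the summed 6 ET4 markers per UMI was 0.610, 0.531 and 0.460, given as a description since nuclei of a mouse share a library and both measures share the total UMIs. The rho with the 7 T1 markers was -0.480, -0.519 and -0.450, and with total UMIs 0.071, -0.157 and 0.039. The rho with the 7 ET1 markers had no common sign, at -0.261, -0.300 and 0.102. In ET4-like nuclei the rho was 0.185, 0.280 and 0.417 with ET4 markers, -0.290, -0.106 and -0.338 with ET1 markers and -0.110, -0.058 and -0.321 with T1 markers.

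Subcluster 2, which carried T1 and inhibitory markers and was left unnamed, was split by the first clustering. Its nuclei from cluster 4 held 1966, 2381 and 1654 CPM of Tmem132d, those from cluster 2 held 46.9, 60.1 and 44.9 CPM, and those from cluster 5 held 46.6, 35.3 and 3.81 CPM. Tmem132c followed the same split, with 131, 184 and 118 CPM in nuclei from cluster 4 and at most 7.49 CPM in the others. The summed inhibitory markers were high in all 3 sets, at 1339 to 2388 CPM, and the ET4 markers were at 399 to 450 CPM in the nuclei from cluster 4 against 25.2 to 41.9 CPM in the others. The median nucleus of subcluster 2 had 20122 UMIs, against 10419 in ET4-like nuclei, and the part of barcodes with 2 nuclei was not tested. M3-like nuclei of mouse 2 showed the same pattern on a small scale, since 21 nuclei from cluster 4 were at 1640 CPM of Tmem132d and 106 from cluster 5 at 17.6 CPM.

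**Figure D3:**
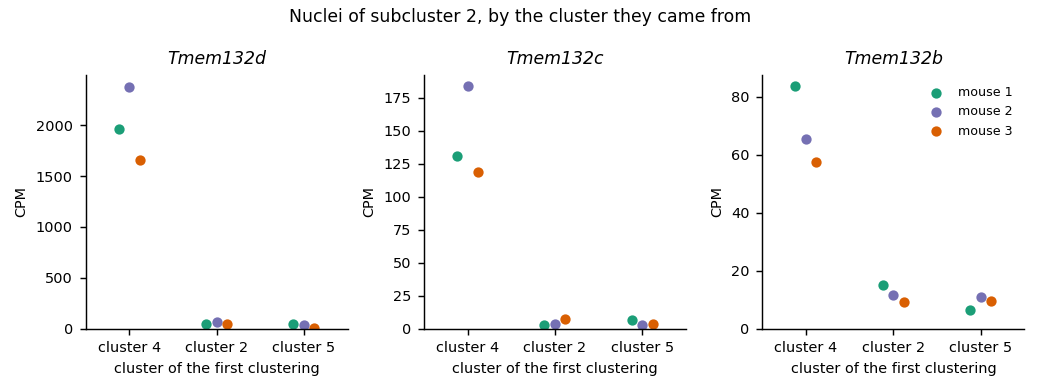
Levels of Tmem132d, Tmem132c and Tmem132b (CPM, linear axes from 0) in the nuclei of subcluster 2, divided by the cluster of the first clustering, with 1 point per mouse. Nuclei from cluster 4 lie above those from clusters 2 and 5 for all 3 genes, for Tmem132d at 1654 to 2381 CPM against at most 60.1 CPM.

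Among glia, OPC-like nuclei held Tmem132d in most nuclei. In this type, 78.0%, 82.4% and 70.0% of nuclei had a UMI (50, 91 and 10 nuclei), and the level without nuclei above 10 per 10000 was still 303, 305 and 249 CPM. In the other 4 named glial types together, 2, 24 and 4 nuclei of 403, 1773 and 360 held 46.1%, 76.1% and 74.1% of the Tmem132d UMIs. The summed ET4 markers in these few nuclei were 1139, 750 and 1123 CPM, against 195, 155 and 160 CPM in the rest. In microglia-like nuclei, which are among these, 1 nucleus of mouse 2 gave 74.6% of the UMIs. Mice 1 and 3 had none, which allows up to 48.7 and 14.95 CPM (3 counts per library). In cluster 18, 2 nuclei of mouse 2 and 1 of mouse 3 held 92.6% and 93.9% of its Tmem132d UMIs. The part of free RNA and of 2 nuclei per barcode in these values was not tested.

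Tmem132c, with 9263 UMIs, was highest in the same subcluster. ET4-like nuclei held 453, 500 and 474 CPM (476 ± 23.3), and no library of another type exceeded 141 CPM. Ensheathing-glia-like nuclei followed with 141, 71.8 and 120 CPM, ET1-like nuclei with 106, 111 and 63.7 CPM, cluster 10 with 96.4, 66.4 and 74.0 CPM and subcluster 8 with 64.5 ± 11.03 CPM. These 4 types overlapped between mice. Among the named projection types, both ET4-like and ET1-like nuclei lay above all others, which reached at most 21.2 CPM. A Tmem132c UMI was found in 58.2%, 62.4% and 65.7% of thinned ET4-like nuclei, against 0.791%, 0.598% and 0.322% in cluster 0.

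Subclusters 2 and 8 held both neighbouring genes, whereas cluster 17, cluster 10 and ensheathing-glia-like nuclei stood at different places in the order of types for Tmem132c and Tmem132d. Cluster 17, which was second for Tmem132d, held 6.35, 5.41 and 0 CPM of Tmem132c. Conversely, cluster 10 held 34.4, 25.8 and 19.9 CPM of Tmem132d, and ensheathing-glia-like nuclei 7.48, 69.6 and 39.9 CPM, most of mouse 3 from 1 nucleus. In another draw of 3000 UMIs, for both genes at once, 56.6%, 72.6% and 49.6% of ET1-like nuclei had a Tmem132d UMI. In that draw, 80.8%, 92.5% and 90.0% of the nuclei with a Tmem132c UMI also had a Tmem132d UMI, against 51.3%, 67.3% and 40.9% of those without. In cluster 10 the corresponding shares were 0%, 7.84% and 0% against 7.35%, 4.11% and 6.03%. Within ET4-like nuclei, where each nucleus had Tmem132d, the rho between both genes per UMI was 0.022, -0.002 and -0.016, and in ET1-like nuclei it was 0.559, 0.544 and 0.539.

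The antisense gene Tmem132cos (ENSMUSG00000087104, chr5:127256858-127281634, minus strand) lies within Tmem132c. With 2845 UMIs it was highest in ET4-like nuclei at 140, 154.5 and 126 CPM, followed by ET1-like (32.6 ± 8.04 CPM), ensheathing-glia-like (28.2 ± 10.2 CPM) and cluster 10 nuclei (19.5 ± 2.24 CPM). These are the leading types of Tmem132c as well. In a separate draw for ET4-like nuclei, 36.1%, 37.0% and 31.7% of those with a Tmem132c UMI had a Tmem132cos UMI, against 14.1%, 12.9% and 20% of those without. The strand setting of the counting is not given in the sources used here, so that reads of the gene and of its antisense partner may not be fully apart.

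Other genes of this stretch of chromosome 5 were also highest in ET4-like nuclei. Within 1 Mb of Tmem132c, 17 genes besides family members were annotated in the count files, of which 7 reached 10 CPM in a type, and 5 of these 7 had their highest mean in ET4-like nuclei. Around Tmem132d it was 5 of 12, and these were the same 5 genes. Over all genes that reached 10 CPM, 3.91% had their highest mean there. The 5 genes are Tmem132cos, the lincRNAs Gm42953 and Gm40331, the antisense gene Gm42817 and the protein-coding gene Glt1d1, which belongs to the glycosyltransferase-like genes. Tmem132cos and Gm42817 lie inside Tmem132c and Tmem132d on the other strand. With the strand setting not given, their reads may not be fully apart from those of the members, so they may not count as separate neighbours.

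Gm42817 lies inside Tmem132d on the other strand (chr5:128336777-128342778) and held 59.0, 54.6 and 49.6 CPM in ET4-like nuclei, with cluster 17 second at 10.1 ± 3.77 CPM. Gm42953 (chr5:126797255-126815482) and Gm40331 (chr5:126852757-126885316) lie before Tmem132c, held 24.9 ± 1.18 and 18.4 ± 3.22 CPM in ET4-like nuclei, and had cluster 10 second. Glt1d1 (chr5:127632262-127709374), between Tmem132c and Tmem132d, was less restricted. It held 68.2, 65.5 and 64.3 CPM in ET4-like and 55.0 ± 6.12 CPM in ET1-like nuclei, and a library of cluster 17 reached 67.4 CPM. The other expressed neighbours were Slc15a4 and Gm42495, both highest in oligodendrocyte-like nuclei, and, on the far side of Tmem132d, 5930412G12Rik, Rimbp2, Stx2, Ran and Adgrd1, each highest in another type than ET4-like.

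**Figure D4:**
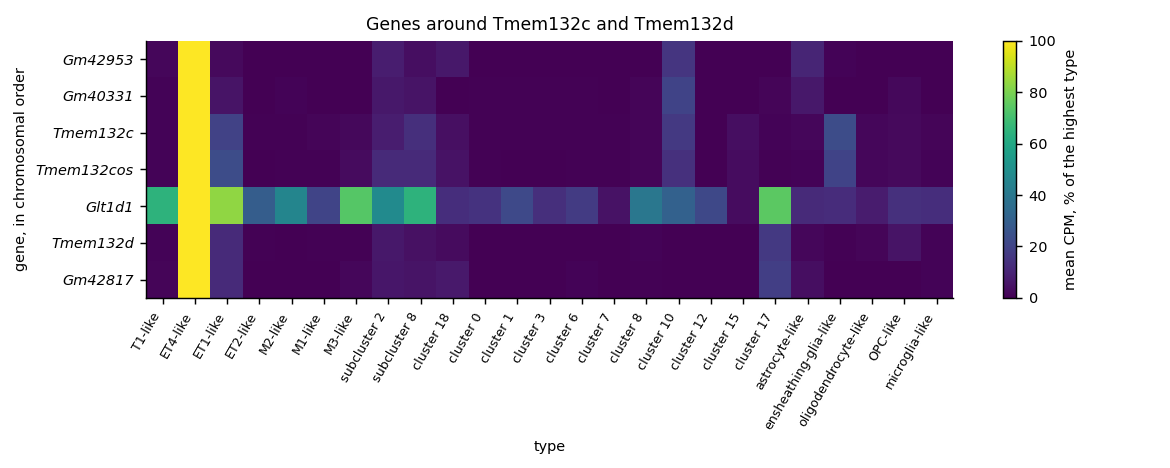
Mean CPM of 7 genes around Tmem132c and Tmem132d, in chromosomal order, as a percentage of the level in the gene's highest type (colour), over 25 types. All 7 rows reach 100% in ET4-like nuclei, Gm42817 and Tmem132d share cluster 17 as second, and Glt1d1 is spread over many neuronal types.

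Tmem132b, with 13096 UMIs, was highest in glia. Ensheathing-glia-like nuclei, the glia that wrap olfactory axons, held 486, 398 and 456 CPM (447 ± 44.8), above every other library. This type carried 6 of 6 markers of ensheathing glia. OPC-like nuclei came next with 354, 242 and 131 CPM, where mouse 3 has 10 nuclei, and overlapped with ET4-like nuclei at 172, 166 and 191 CPM. Cluster 8 varied between mice, at 91.4, 49.0 and 169 CPM, and in mouse 3 it held 26.7% of all Tmem132b UMIs. Among the named projection types, ET4-like nuclei lay above ET2-like nuclei (102, 90.1 and 82.5 CPM), and these above ET1-like nuclei (32.3, 33.9 and 16.5 CPM). M2-like nuclei had the lowest mean of all types, at 1.55, 1.996 and 0.938 CPM, below T1-like nuclei at 3.62, 3.24 and 5.00 CPM. Single libraries of M3-like, cluster 18 and microglia-like nuclei were lower still, at 0 CPM. In thinned nuclei, 66.7%, 64.7% and 65.6% of ensheathing-glia-like nuclei had a Tmem132b UMI, against 0.520%, 0.438% and 0% of M2-like nuclei. The ET1-like and ET2-like types thus stood in the opposite order to that of Tmem132c and Tmem132d, since ET2-like nuclei held 1.16, 1.55 and 3.53 CPM of Tmem132c.

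Most expressed genes near Tmem132b did not share its leading type. Of 28 neighbours within 1 Mb, 15 reached 10 CPM in a type. Only Tmed2 and Scarb1 were highest in ensheathing-glia-like nuclei, which is 13.3% against 6.55% over all genes that reached 10 CPM, and none was highest in ET4-like nuclei. The rest included Ddx55, Eif2b1, Gtf2h3, Atp6v0a2, Dnah10, Ccdc92, Zfp664, Rflna, Dhx37, Bri3bp and Aacs.

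Tmem132e was sparse, with 806 UMIs over the 3 mice, and was highest in cluster 17. That cluster held 54.0, 40.0 and 50.6 CPM (48.2 ± 7.32) from 34, 96 and 21 UMIs, with exact Poisson 95% intervals of 37.4 to 75.5, 32.4 to 48.8 and 31.3 to 77.3 CPM, which cover counting error only. Its libraries lay above all others. Cluster 10 followed with 13, 12.4 and 11.04 CPM. M1-like nuclei held 12.3 and 11.95 CPM in mice 2 and 3, and no UMI in the 14 nuclei of mouse 1. By a limit of 3 counts per library, so few nuclei allow a level above those of mice 2 and 3. The gene was near 0 where Tmem132c and Tmem132d peaked, with 1, 1 and 0 UMIs in ET4-like nuclei. In ET1-like nuclei it had no UMI in any mouse, which allows up to 1.35, 0.494 and 1.46 CPM (3 counts per library). A Tmem132e UMI was found in 50.0%, 40.9% and 40.0% of cluster 17 nuclei, or 15.8%, 12.1% and 10.0% after thinning, against 0% of thinned ET4-like nuclei in each mouse.

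Of 42 neighbours of Tmem132e, 23 reached 10 CPM in a type, and none was highest in cluster 17, where 476 of all 14637 genes at that level had their highest mean. Asic2, 5530401A14Rik and the antisense genes 4930527B05Rik and Gm11418 were highest in M3-like nuclei. Gm17268, Ccl7, Ccl12, Ccl8, Rad51d, Slfn8, Slfn2, Gm20234 and Ap2b1 were highest in microglia-like nuclei, and Ccl2, Unc45b and Slfn5 in cluster 18. Zfp830, Lig3, Rffl, Fndc8, Nle1, Rasl10b and Mmp28 peaked in other types. In the microglia-like library of mouse 1, with 19 nuclei, 3 UMIs are 48.7 CPM, so a few UMIs can place a gene highest there. Shares over all genes are not given for M3-like, microglia-like and cluster 18 nuclei, so nothing is read from these names.

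Tmem132a, with 9072 UMIs, was detected in all types. T1-like nuclei had the highest mean at 55.6, 52.5 and 52.4 CPM (53.5 ± 1.83) and overlapped with ET4-like nuclei at 32.7, 50.0 and 55.9 CPM. The lowest mean was that of cluster 6 at 7.54, 8.71 and 6.79 CPM. Among the named projection types the order ran from T1-like over ET4-like, ET1-like, ET2-like and M3-like nuclei to M1-like and M2-like nuclei. M1-like and M2-like nuclei, at 23.5 ± 3.01 and 18.5 ± 2.07 CPM, overlapped with each other and lay below the M3-like libraries (32.0 ± 2.14 CPM). Its surroundings on chromosome 19 were dense, with 70 neighbours of which 33 reached 10 CPM. Of these, Ddb1 was highest in ET4-like nuclei, which is 3.03% against 3.91% over all genes that reached 10 CPM. Syt7, Gm26859, Vps37c and Ms4a15 were highest in T1-like nuclei, and Stx3 and Tmem216 in other projection types. The remaining 26 were highest in glial types or cluster 18, among them Fth1 and Myrf in oligodendrocyte-like nuclei, Fads2 in astrocyte-like nuclei and several Ms4a genes in microglia-like nuclei. Ensheathing-glia-like nuclei led for 15.2% of the 33, against 6.55% over all genes that reached 10 CPM. For glial types and cluster 18 together no such share is given, so nothing is read from the 26.

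The members were next compared between classes of nuclei. Tmem132d was 1045, 1003 and 441 CPM in the 7 named projection types summed, and 42.2, 40.6 and 43.1 CPM in the 10 inhibitory clusters summed, a mean log2 ratio of 4.17 ± 0.73 (pseudocount 1 CPM). Without cluster 17 the ratio was 5.34 ± 1.16. For Tmem132c, the projection sums of 61.7, 72.9 and 30.7 CPM stood against 7.20, 5.75 and 4.29 CPM, with a log2 ratio of 2.99 ± 0.44. Mouse 3, which had the smallest share of ET4-like nuclei, had the lowest ratio for both genes. Neither ratio was computed without ET4-like nuclei. Outside ET4-like and ET1-like nuclei, mean Tmem132d levels of the named projection types ran from 22.55 (M2-like) to 73.8 CPM (T1-like). The inhibitory sums averaged 42.0 CPM. For Tmem132c the same projection types had means of 2.03 (M2-like) to 10.1 CPM (M3-like), against 5.745 CPM in the inhibitory sums. Higher levels of both genes were thus not shared by all projection types. Tmem132a was higher in projection nuclei by 0.79 ± 0.15. Tmem132b (-0.37 ± 0.68) and Tmem132e (-0.26 ± 0.54) had no common sign over the mice.

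By a rule of non-overlapping libraries and a log2 ratio above 1, 2 of 5 members were higher in projection nuclei, Tmem132c and Tmem132d, and 0 of 5 were lower. Of all genes with at least 10 UMIs, 7.36% were higher and 8.88% lower by that rule. In 4 of 5 members, 1 of the 25 types lay above all other libraries, against 14.0% of all genes, and in 3 of 5 (Tmem132b, Tmem132c and Tmem132d, each in ET4-like nuclei) 1 of the 7 named projection types lay above the other 18 libraries of these types, against 9.27%. Since members were chosen by such levels, nothing is read from these counts.

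Mitral-like types held less of 4 members than tufted-like types when each type had equal weight. The mean log2 ratio of mitral-like over tufted-like nuclei was -6.01 ± 0.98 for Tmem132d, -4.53 ± 1.01 for Tmem132c, -3.46 ± 0.82 for Tmem132b and -0.77 ± 0.19 for Tmem132a, negative in 3 of 3 mice for each. Without ET4-like nuclei, the ratios were -3.29 ± 0.55 for Tmem132d, -2.41 ± 0.69 for Tmem132c and -2.60 ± 0.66 for Tmem132b, while Tmem132a moved little, to -0.73 ± 0.205. The libraries of the 2 classes overlapped for all 5 members by the same rule, which 0.382% of all genes met in either direction. T1-like and ET2-like libraries of both Tmem132d and Tmem132c and T1-like libraries of Tmem132b lay within the mitral-like range. Tmem132e had log2 ratios of -1.13, 1.84 and 1.49, and the mouse with the negative value is the one with 14 M1-like nuclei.

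**Figure D5:**
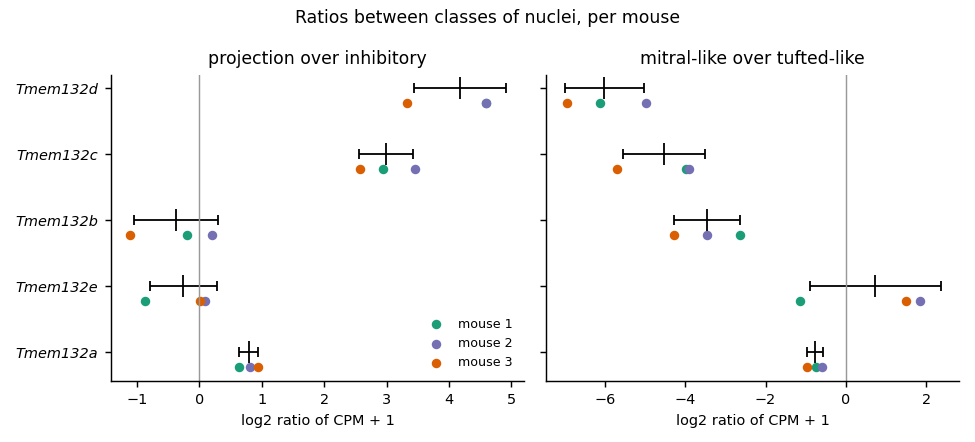
Log2 ratios of CPM + 1 for the 5 genes, projection over inhibitory nuclei on the left and mitral-like over tufted-like types on the right. Coloured points are mice, black ticks and bars are the mean and SD of 3 mice, and the grey line marks equal levels. Tmem132d and Tmem132c lie at 2.58 or higher on the left and at -3.91 or lower on the right in each mouse, while Tmem132e and, on the left, Tmem132b lie on both sides of 0.

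Pairs of members and the genes most like each member were described by Pearson's r of log2(CPM + 1) over the 25 types, whose values share libraries and depth. Tmem132c and Tmem132d had the highest r of the 10 pairs in mice 1 and 2, at 0.561 and 0.716, with 0.440 in mouse 3, where Tmem132b and Tmem132d had 0.501. For Tmem132e, r with the other members ran from -0.419 to 0.355. The 3 most similar other genes were chosen in mouse 2 among genes with at least 10 CPM in a type and then looked up in mice 1 and 3.

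For Tmem132c these were Tmem132cos (r of 0.981 in mouse 2, then 0.887 and 0.921), Pip5k1b, a phosphatidylinositol phosphate kinase (0.825, then 0.641 and 0.603) and Ly6g6e (0.788, then 0.537 and 0.571). Ly6g6e is itself one of the ET4 markers. Tmem132cos was the most similar of all candidates in mice 1 and 3 too. For Tmem132d they were Fryl (0.864, then 0.750 and 0.785), Pip5k1b (0.838, then 0.632 and 0.674) and Sec24d, a coat protein of vesicles leaving the endoplasmic reticulum (0.819, then 0.332 and 0.624). Fryl was again the most similar gene in mouse 3. For Tmem132e, 2210408I21Rik kept a high r (0.743, then 0.651 and 0.764), with Ylpm1 and Gm9866 below it in mice 1 and 3 (0.471 to 0.533). The genes chosen for Tmem132b (Itgb3bp, Dtd2, Gng7) and Tmem132a (As3mt, Cck, Tspan4) had r from 0.665 to 0.718 in mouse 2 and from 0.113 to 0.612 in the other mice.

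Genes of the partners known for TMEM132 proteins were looked at as lists. The lists were chosen with earlier results of these data known, so nothing is read from the counts below. Of 23 genes, 5 were higher and 5 lower in projection than in inhibitory nuclei by the rule above (21.7% each, against 7.36% and 8.88% of all genes), and in 7 of them, or 30.4% against 9.27%, 1 named projection type lay above the others. Wls, the Wnt carrier, was lowest in ET4-like nuclei among the named projection types (8.75 ± 4.33 CPM) and highest in ensheathing-glia-like nuclei (442 ± 87.3 CPM). Hspa5 was highest in cluster 18 and met none of the rules. Of 9 genes of the WAVE complex, which drives actin branching, none was higher and 1, Cyfip1, was lower in projection nuclei, and none had a separated projection type. Of 12 GABA-A receptor subunits, 5 were higher, among them Gabra3, Gabrb1 and Gabrb2, and 3 lower (Gabra5, Gabrg1, Gabrg3). Gabrg3 and Gabra4 were at their lowest in ET4-like nuclei among the named projection types (9.21 ± 1.77 and 8.27 ± 0.98 CPM).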

How the data were processed

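Per the file headers, Cell Ranger 3.0.2 made the deposited matrices, which hold raw UMI counts of the authors for each gene and barcode. Aligner settings are not given in the sources used here. The build is mm10 (GRCm38) in the submitters' processing notes. The nuclei that the authors retained, with clusters and subclusters from Seurat, were used as listed. The authors' sorting gate excluded doublets by scatter, and no doublet caller was run here. The deposited metadata also give the percent of mitochondrial UMIs in a nucleus, by which the authors had filtered, and which entered no value here. Sums over the matrices matched the metadata for UMIs and genes in 100% of nuclei.

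For each mouse and type, UMI counts were added up and given as CPM of all UMIs, with the mean ± SD over 3 mice. A marker counted as carried at 25% or more of the CPM in the highest type, a rule set after the values had been seen. Inhibitory clusters carried 5 or 6 of 6 inhibitory markers, and 1 to 5 of 5 markers of immature neurons. Subclusters 2, 8 and 9 and clusters 18 and 21 stayed unnamed. Members and lists were chosen with earlier results of these data known, so no test was run. The named genes are the 5 members, the 3 genes most similar to each, all neighbours within 1 Mb at 10 CPM or more in a type, and the listed partners, of which some are not reported here. Positions were taken from GENCODE M21, which matched 30934 of 31055 identifiers. Python 3.11.15 and, for TMM library sizes, edgeR 4.0.16 were used. Thinned shares come from 1 random draw per nucleus unless stated. The separation rule was tried on simulated data, but the outcome is not reported here and is not used as support for the rule. Intervals and floors of counts cover counting error only.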

Additional observations from a re-analysis of the deposited data

How the results depend on the processing

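The ratios between classes were recomputed with TMM and median-ratio library sizes, without Malat1 and mitochondrial genes, as means over nuclei, with a higher minimum of genes per nucleus, without the 5% of nuclei with most UMIs and with pseudocounts of 5 and 0.1 CPM. Alternatives chosen after seeing the data left out shared barcodes, clusters 10 and 12, cluster 17 or ET4-like nuclei. Of the recomputed values, 162 moved by less than the SD over mice or, for counts of genes, by less than 1.5 times. Another 11 moved by more, and none reversed a sign shared by the 3 mice. The 162 include the values with 1 mouse left out. With 3 mice, leaving out 1 cannot move the mean by an SD, so the number 162 is no measure of robustness. The mean over nuclei gave projection over inhibitory log2 ratios of 0.36 for Tmem132b and 5.36 for Tmem132d. Tmem132c was at 2.42 with a pseudocount of 5 CPM and 3.81 without clusters 10 and 12, and Tmem132d at 5.34 without cluster 17. Without ET4-like nuclei, mitral over tufted ratios were -2.60 for Tmem132b, -2.41 for Tmem132c and -3.29 for Tmem132d. The Tmem132a level in T1-like nuclei was 56.5 CPM and the Tmem132b level in ensheathing-glia-like nuclei 514 CPM without the nuclei with most UMIs. The mean share of ET1-like nuclei with a Tmem132d UMI was 52.2% thinned to 3000 UMIs, 56.6% as the exact expectation over draws, added after seeing the data, 65.1% at 5000 and 76.1% unthinned. The cause was not tested, except that the unthinned share rests on more UMIs per nucleus.

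Leaving out 1 mouse at a time, projection over inhibitory ratios ranged from 3.96 to 4.60 for Tmem132d, from 2.76 to 3.20 for Tmem132c, from -0.66 to 0.0030 for Tmem132b, from -0.43 to 0.051 for Tmem132e and from 0.72 to 0.87 for Tmem132a. Without mouse 3, Tmem132b was at 0.0030. Mitral over tufted ratios ranged from -6.53 to -5.55 for Tmem132d, from -4.83 to -3.94 for Tmem132c, from -3.87 to -3.05 for Tmem132b, from -0.86 to -0.67 for Tmem132a and from 0.18 to 1.67 for Tmem132e, where 1.67 is without mouse 1. Each ratio pairs classes of nuclei within a mouse. Between groups of mice, no paired analysis was possible because the samples form 1 group. Depth limits Tmem132e, with 806 UMIs in all, and the M1-like nuclei of mouse 1 and the OPC-like nuclei of mouse 3 are few.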
